A study of Mus musculus with 6 samples.

Results

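The 98 genes of the microtubule and its motors that the gene table listed were examined in cardiac fibroblasts in which Cre had or had not been used to delete *Tet3*, whose enzyme oxidises methylated cytosine. They were chosen by symbol from 22063 genes, as every tubulin and tubulin complex gene (Tuba, Tubb, Tubg, Tubd and Tube), every kinesin gene (Kif, with the light chains Klc1 to Klc4) and every cytoplasmic dynein gene (Dync and Dynl). RNA-seq had been performed on 6 libraries of primary cardiac fibroblasts from Tet3 f/f mice, whose *Tet3* alleles carry sites that Cre recombinase cuts. In 3 of them (GFP) the cells had received an adenovirus coding for green fluorescent protein, and in the other 3 (CRE) one coding for Cre. Cre came with the virus and not from a transgene of the mouse. Per the study's reagent list the Cre virus also codes for EGFP, a green fluorescent protein. The cells of both groups had been treated with TGF-β, which turns fibroblasts into myofibroblasts. The study's legend states the dose and time of this treatment, which the labels do not, and the labels give neither the age nor the number of the animals. There was no group without TGF-β or without virus, so the comparison is one of the Cre virus against the GFP virus in stimulated cells. A legend of the study speaks of biological replicates without saying which assays it covers, and the labels do not say that libraries of a group came from separate cultures or animals. The p-values then measure the spread between these libraries, which may be technical.

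Microtubules are hollow tubes built from dimers of alpha and beta tubulin, each encoded by several genes (isotypes), and they are seeded by gamma tubulin in a ring complex. Kinesins walk along them, most toward the plus end near the cell border, and carry cargo (the kinesin-1, kinesin-2 and kinesin-3 families) or build and pull the spindle of dividing cells. Cytoplasmic dynein walks toward the minus end, and a separate dynein, dynein-2, returns material from the tip of the primary cilium. In fibroblasts the network polarises the migrating cell and carries secretory vesicles.

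The libraries held 17002126 to 20343590 counted reads, and expression profiles correlated at r = 0.989 to 0.993 within groups and 0.963 to 0.97 between them (log2 CPM). *Tet3* gave 1044, 965 and 1000 reads in the GFP libraries and 642, 649 and 637 reads in the CRE libraries, a level in CRE of 60.8% of that in GFP (log2 fold change -0.72, SE 0.08, adjusted p = 5.36e-05; exact two-sided permutation p = 0.1, the smallest that 3 against 3 allows). Of 12 fibroblast marker genes all were detected, at a summed 54957 to 56635 CPM in GFP and 29367 to 31682 CPM in CRE. In CRE 10 of them (83.3%) were lower, against 25.7% of all tested genes. Levels of a gene are given in CPM, its reads relative to the library size. Library sizes were scaled by TMM, a method that sets the bulk of genes level, with factors of 0.9438 to 0.9465 in GFP and 1.052 to 1.063 in CRE. Without that scaling the median log2 fold change of all tested genes is 0.162 higher, and all changes below are relative to the bulk of genes. In these bulk samples fewer cells of a type and less RNA per cell cannot be told apart.

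The changes sorted by class. Of 12 alpha and beta tubulins 10 were higher in CRE, as were 5 of 9 genes of the gamma tubulin class and 11 of 20 transport kinesins. These counts include the scarce *Tuba8* and *Kifc2*, which passed the filter on low counts only with their CRE libraries. Mitotic kinesins and dynein subunits were near the bulk of genes, and a small group of other kinesins, led by *Kif21b* and *Kif26b*, was lower. Of the 98 genes 81 passed the filter on low counts and were tested (edgeR's quasi-likelihood test, Benjamini-Hochberg adjustment over all 12862 tested genes, threshold 0.05). In all, 44 of the 81 differed between the groups, 32 of them higher (39.5%) and 12 lower (14.8%), where 51.2% of all tested genes differed, 25.5% higher and 25.7% lower. The median log2 fold change was 0.15 over the 81 genes and 0.01 over all tested genes. The CRE libraries all lay above the GFP libraries for 37 of the 81 genes and all below for 14. Over all tested genes such groups without overlap made up 59.6%, 30% above and 29.6% below. The 44 genes that differed each had groups that did not overlap. Fold changes were mostly modest: 9 genes were called with a rise of over 1.5-fold and 4 with a fall below 0.66-fold. With library sizes not scaled, all 32 higher genes were still called higher, but 5 of the 12 lower genes were still called lower (*Kif1c*, *Kif26a*, *Kif26b*, *Kif21b* and *Dync2h1*), so the lower calls for the other 7 rest on the scaling.

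**Figure D1:**
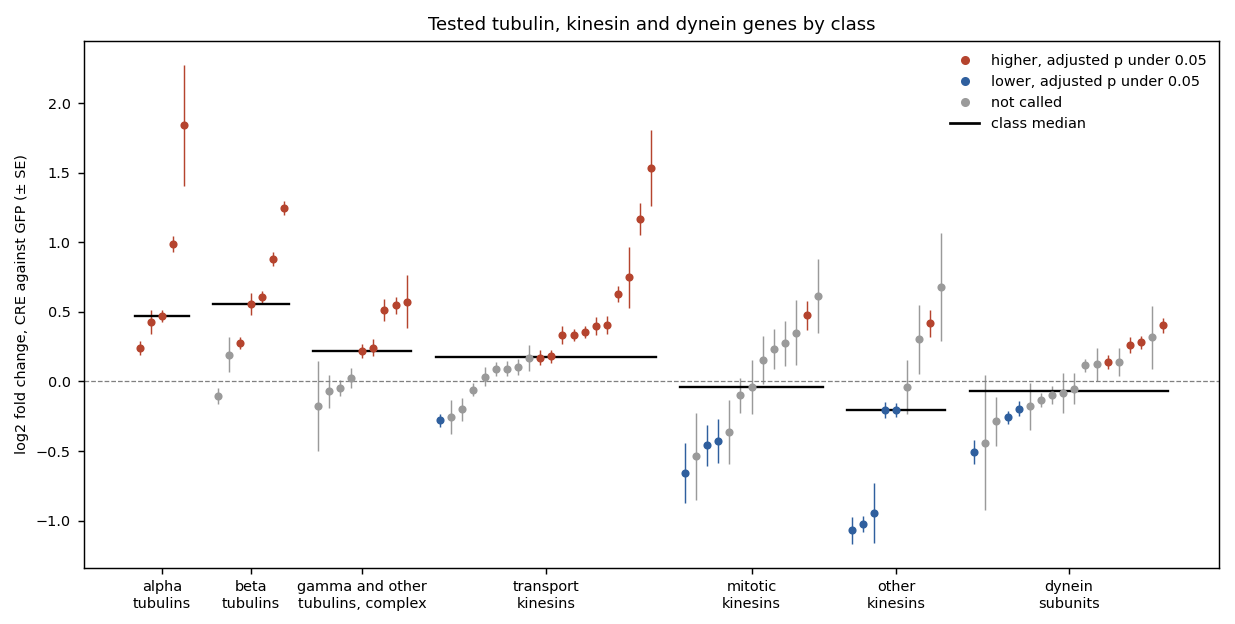
Log2 fold change (y axis, CRE against GFP, on TMM-scaled counts) with its SE for each of the 81 tested genes, sorted within 7 classes on the x axis; red and blue points passed an adjusted p of 0.05, grey points did not, and black bars are class medians. Every called tubulin gene is above 0 and the class medians fall from 0.56 for beta tubulins to -0.20 for other kinesins; with library sizes not scaled the medians of mitotic kinesins and dynein subunits are above 0.

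Most alpha and beta tubulin isotypes were higher in CRE, by unequal amounts. All 5 tested alpha tubulins and 5 of 7 tested beta tubulins were higher in CRE, none was lower, and the median log2 fold change of the 12 was 0.51. The alpha tubulins include *Tuba8*, which passed the count filter only through its CRE libraries, where it is high. Their summed level was 2198 ± 81.4 CPM in GFP and 3121 ± 53.2 CPM in CRE (SD, n = 3 each), that is 142.0% of GFP. *Tubb4b*, a beta tubulin found in most tissues and in cilia, stood at 130.2, 137 and 129 CPM in GFP and 303, 334 and 305 CPM in CRE. Each CRE library held more than each GFP library by far more than the spread within groups, which was 4.38 and 17.6 CPM (SD, n = 3 each; log2 fold change 1.25, SE 0.05, adjusted p = 1.88e-07). *Tuba1c*, an alpha tubulin, had 118, 127 and 109 CPM in GFP and 228, 242 and 233 CPM in CRE, so its level in CRE was 198% of that in GFP (log2 fold change 0.99, SE 0.06, adjusted p = 7.96e-07). *Tubb2a* had 106, 106 and 105 CPM in GFP and 189.8, 206 and 188 CPM in CRE (log2 fold change 0.88, SE 0.05, adjusted p = 5.76e-07); its GFP libraries differed by an SD of 0.785 CPM and the groups did not overlap. *Tubb4b*, *Tuba1c* and *Tubb2a* had the highest fold changes of all isotypes but the scarce *Tuba8*. *Tubb6*, a beta tubulin whose overproduction disrupts microtubules in cultured cells, had 106, 98.6 and 101 CPM in GFP and 159, 156 and 151 CPM in CRE (log2 fold change 0.61, SE 0.05, adjusted p = 4.10e-06). *Tubb3*, best known as the neuronal beta tubulin, had 30.2, 30.3 and 31.4 CPM in GFP and 39.5, 49.7 and 45.99 CPM in CRE, higher in 3 of 3 CRE libraries (log2 fold change 0.56, SE 0.08, adjusted p = 2.76e-04).

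The 3 isotypes with the highest levels had smaller fold changes than the isotypes described so far, and *Tubb5* and *Tuba1b* had the smallest of those called. *Tuba1a* had 787, 770.5 and 730.0 CPM in GFP and 1047, 1048 and 1073 CPM in CRE (log2 fold change 0.47, SE 0.04, adjusted p = 1.19e-05). *Tubb5*, the main beta tubulin of proliferating cells, had 485, 465 and 450.3 CPM in GFP and 553, 572 and 568 CPM in CRE, 121% of GFP (log2 fold change 0.27, SE 0.04, adjusted p = 4.72e-04). *Tuba1b* had 384, 354 and 345 CPM in GFP and 419.8, 435 and 426 CPM in CRE, 118% of GFP (log2 fold change 0.24, SE 0.05, adjusted p = 0.0022). In both genes the lowest CRE library still lay above the highest GFP library. *Tuba4a* had 45.5, 36.4 and 35.7 CPM in GFP and 51.4, 53.9 and 52.6 CPM in CRE (log2 fold change 0.43, SE 0.09, adjusted p = 0.0019), and 45.6% of the 150-base windows of its transcript also lie in *Stk16*, with which it overlaps. *Tuba8*, an alpha tubulin of muscle and brain, is a near-silent gene here with 2, 6 and 4 reads in GFP and 12, 16 and 18 reads in CRE (log2 fold change 1.84, SE 0.44, adjusted p = 0.00531). The count filter favoured a higher call for *Tuba8*, which passed it only through its CRE libraries, so that call is not read as a result by itself. *Tubb4a* (12.7, 17.5 and 14.7 CPM in GFP and 14.8, 18.2 and 18.4 CPM in CRE) and *Tubb2b* (69.9, 64.04 and 60.8 CPM in GFP and 62.00, 58.98 and 59.7 CPM in CRE) overlapped between groups and were not called (adjusted p = 0.232 and adjusted p = 0.154), though *Tubb4a* was higher with library sizes not scaled (adjusted p = 0.0352). *Tubb2b* had a log2 fold change -0.11 ± 0.06 (SE), and this sign turned to 0.055 with library sizes not scaled and to 0.054 on log2(FPKM + 1). It is the neighbour of *Tubb2a* on chromosome 13 (34126748 to 34130466 against 34074274 to 34078007 on GRCm38, both on the minus strand).

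**Figure D2:**
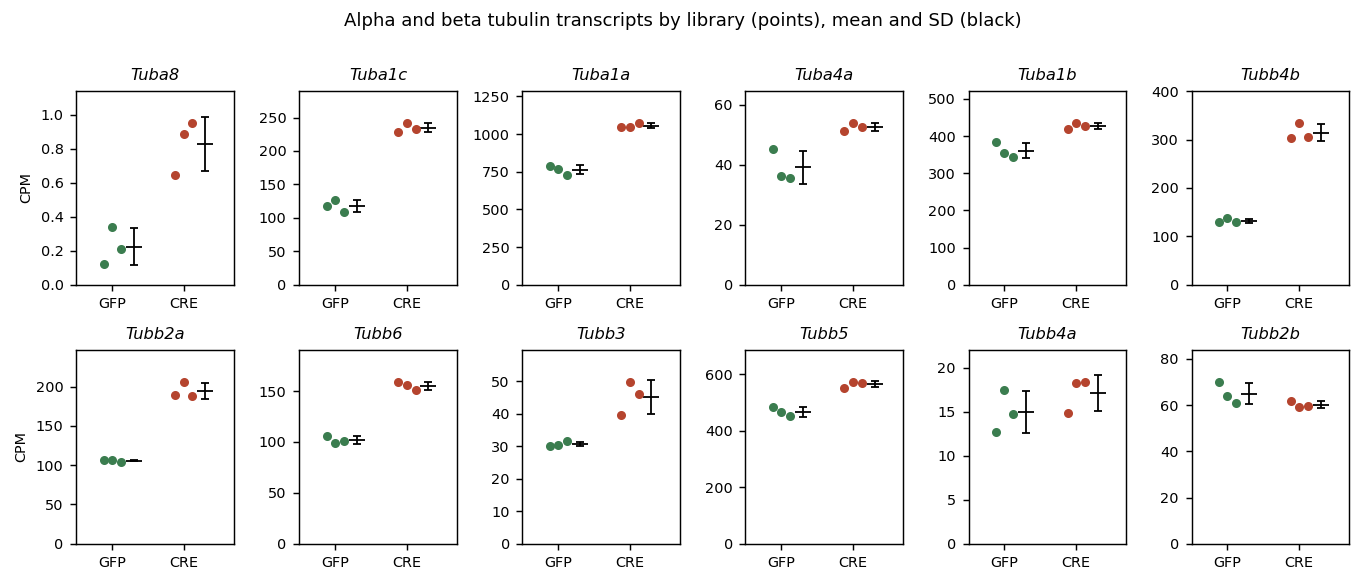
CPM (y axis, from 0, one scale per panel) of the 12 tested alpha and beta tubulin genes in the 3 GFP (green) and 3 CRE (red) libraries, with mean and SD in black. Groups are apart for every panel except Tubb4a and Tubb2b, and Tubb4b moves from 129 to 137 CPM in GFP to 303 to 334 CPM in CRE.

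The isotypes are close copies of one another, which bears on these values. The first 30 coding bases of the tubulins whose levels the result turns on are printed here from the GRCm38 transcripts, with the first 4 codons in capitals. In alpha and beta tubulins the peptide made from these codons is recognised during translation by a factor, TTC5, that starts decay of the message when free tubulin is in excess.
Tuba1a: ATGCGTGAGTGCatctccatccatgttggc
Tuba1b: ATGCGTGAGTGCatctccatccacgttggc
Tuba1c: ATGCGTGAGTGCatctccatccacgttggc
Tubb5: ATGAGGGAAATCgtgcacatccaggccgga
Tubb4b: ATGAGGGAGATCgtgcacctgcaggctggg
Tubb2a: ATGCGCGAGATCgtgcacatccaggcgggc
Tubb2b: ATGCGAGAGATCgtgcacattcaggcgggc
Tubg1: ATGCCGAGAGAAatcatcaccctacagttg
*Tuba1a*, *Tuba1b* and *Tuba1c* share all 4 codons, and *Tubb4b* shares them with *Tubb3*. *Tubb2a* and *Tubb2b* differ in 1 of the 4. Of the 150-base windows of the transcripts, 54.8% for *Tuba1a*, 57.5% for *Tuba1b* and 45.7% for *Tuba1c* are also found in another annotated gene, mostly each other, as are 27.9% for *Tubb2a*, 20.1% for *Tubb2b* and 17.2% for *Tubb4b* (in its pseudogene *Tubb4b-ps1*). How the counting assigned reads shared by copies is not given in the sources used here, so the split within these groups is uncertain. Summed over *Tuba1a*, *Tuba1b* and *Tuba1c*, which does not depend on the split among these 3 but can on that with other loci that share windows with them, the level was 1241.7 ± 53.4 CPM in GFP and 1717.5 ± 19.5 CPM in CRE (SD, n = 3 each), that is 138.3%. Summed over *Tubb2a* and *Tubb2b* it was 170.5 ± 5.28 and 254.7 ± 8.99 CPM, that is 149.4%.

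The shares of the isotypes in the tubulin pool shifted. Levels of different genes were set against each other on the deposited FPKM values, which divide reads by depth and transcript length. They carry no correction for the bulk of genes, whose median lies 0.13 higher on log2(FPKM + 1) than in the TMM-scaled fit. The alpha tubulins summed to 671.4 ± 29.6 FPKM in GFP and 1033 ± 16.2 FPKM in CRE (SD, n = 3 each), and the beta tubulins to 411.5 ± 8.72 and 717 ± 26.5 FPKM. *Tubb5* fell from 40.5 ± 0.632% to 31.4 ± 0.702% of beta tubulin FPKM, although its own level rose, while *Tubb4b* went from 19.0 ± 0.675% to 28.9 ± 0.670%. These shares do not depend on the scaling of libraries. The 3 CRE libraries lay apart from the 3 GFP libraries for both isotypes, at 30.7 to 32.1% against 40.0 to 41.2% for *Tubb5* and 28.5 to 29.7% against 18.3 to 19.7% for *Tubb4b*. *Tubb2a* went from 15.1 ± 0.238% to 17.8 ± 0.358% and *Tubb2b* from 6.83 ± 0.340% to 4.08 ± 0.222%. Among alpha tubulins *Tuba1a* held 59.5 ± 0.525% in GFP and 59.95 ± 0.642% in CRE, *Tuba1b* 29.1 ± 0.684% and 25.1 ± 0.305%, and *Tuba1c* 8.40 ± 0.492% and 12.1 ± 0.275%. The order of the isotypes within alpha tubulin was the same in both groups, and in CRE *Tubb4b* came close to *Tubb5* at the top of the beta tubulins.

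**Figure D3:**
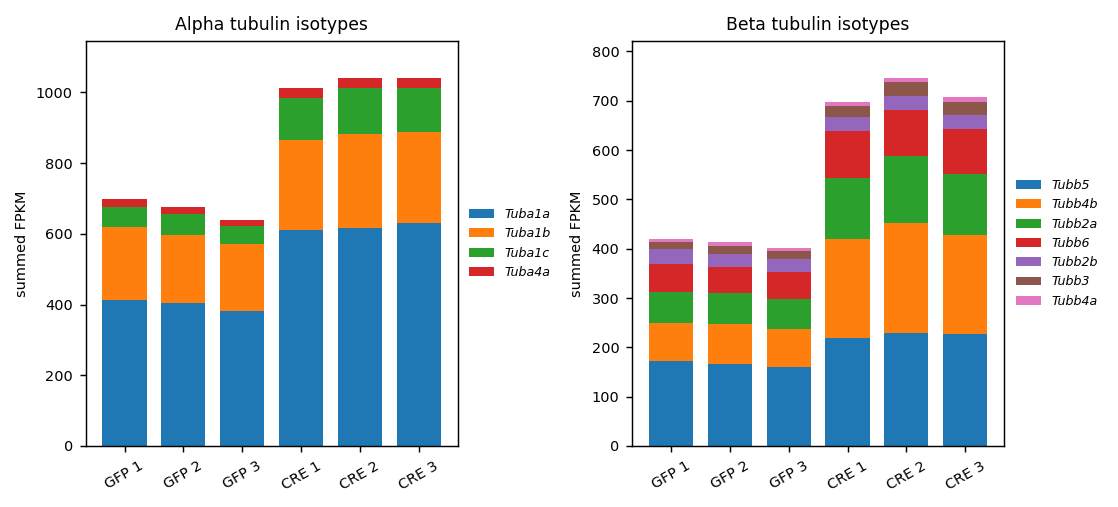
Stacked FPKM (y axis, from 0, deposited values) of the alpha tubulin (left) and beta tubulin (right) isotypes with a mean above 1 FPKM in each of the 6 libraries. The alpha stacks stand at 640.1 to 698.8 in GFP and 1014 to 1043 in CRE with Tuba1a as the largest layer, and in the beta stacks the Tubb4b layer grows from under 20% to over 28% of the whole.

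*Tubb4b*, the beta tubulin with the highest fold change, is encoded on chromosome 2 (25222160 to 25224702, minus strand, GRCm38). The 250 bases before its transcription start in RefSeq (GRCm38.p6, chr2:25224703-25224952, minus strand) are shown because they hold 5 copies of the letters CCAAT, the core of the site for the factor NF-Y, in capitals. At least 1 copy on either strand is present in 39.3% of the promoter windows of tested genes and 37.9% of all 27025 windows, each of 300 bases (250 before the start and 50 after).
Tubb4b upstream: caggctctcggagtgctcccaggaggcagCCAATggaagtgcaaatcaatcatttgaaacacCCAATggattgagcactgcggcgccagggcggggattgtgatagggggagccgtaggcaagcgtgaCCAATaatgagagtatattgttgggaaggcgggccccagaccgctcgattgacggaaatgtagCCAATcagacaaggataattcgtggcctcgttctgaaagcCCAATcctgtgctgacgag
The copies begin between 221 and 19 bases before the start. The same search found 2 copies for *Tubb5*, 1 each for *Tuba1a*, *Tuba1c* and *Tubb3* and 0 for *Tuba1b* and *Tubb2a* in their windows. The *Tubb4b* stretch also holds TTTGAA once, in lower case and apart from the CCAAT copies. A match of letters is a description of the window only.

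The microtubule seed was the next class. Of 9 tested genes of gamma, delta and epsilon tubulin and the gamma tubulin complex 5 were higher and none lower, with a median log2 fold change of 0.22. *Tubg1*, the gamma tubulin of most cells, had 23.3, 22.4 and 23.1 CPM in GFP and 31.8, 33.9 and 34.7 CPM in CRE (log2 fold change 0.55, SE 0.06, adjusted p = 5.22e-05). *Tubgcp6*, a subunit particular to the large ring complex, had 20.8, 20.4 and 21.5 CPM in GFP and 28.9, 33.2 and 27.3 CPM in CRE (log2 fold change 0.51, SE 0.08, adjusted p = 4.61e-04). *Tubg2*, the second gamma tubulin gene, was far lower in level at 2.30, 3.38 and 3.84 CPM in GFP and 4.997, 4.71 and 4.59 CPM in CRE (log2 fold change 0.57, SE 0.19, adjusted p = 0.0277), and its call was lost when GFP replicate 1 or any 1 CRE replicate was left out (adjusted p = 0.054 to 0.0775). *Tubgcp2*, of the small core complex, and *Tubgcp4* were 118% and 116% of GFP (adjusted p = 0.00731 and adjusted p = 0.00385), *Tubgcp4* sharing 42.6% of its windows with the overlapping *Trp53bp1*. *Tubgcp3* (log2 fold change -0.05), *Tubgcp5* (0.03), *Tubd1* (-0.07) and *Tube1* (-0.18), the last 2 being tubulins of centriole triplets, were not called, though *Tubgcp5* was higher with library sizes not scaled (adjusted p = 0.0389).

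Of 20 tested genes of kinesins that carry cargo and their partners, 11 (55%) were higher and 1 (5%) lower (2 without GFP replicate 3). The shares over all tested genes were 25.5% and 25.7%. The class had a median log2 fold change of 0.18. It includes the kinesin-binding *Kifbp*, which was not called (log2 fold change 0.10). *Kifbp* was called higher with library sizes not scaled (adjusted p = 0.00256) and on log2(FPKM + 1) (0.00797). Among the 11 were every heavy chain of kinesin-1 and 4 subunits of kinesin-2, *Kif3c* and *Kif5a* with calls that other settings did not all keep. The 11 also include the scarce *Kifc2*, which passed the filter on low counts only with its CRE libraries. *Kif5b*, the kinesin-1 heavy chain of most cells, had 427, 420.2 and 402 CPM in GFP and 542, 529 and 528 CPM in CRE (log2 fold change 0.36, SE 0.04, adjusted p = 6.74e-05). It held 97.5 ± 0.318% of kinesin-1 heavy chain FPKM in GFP and 95.95 ± 0.271% in CRE. *Kif5c*, a heavy chain most abundant in neurons, had 9.14, 12.5 and 9.77 CPM in GFP and 22.1, 24.8 and 23.8 CPM in CRE, 225% of GFP with no overlap (log2 fold change 1.17, SE 0.11, adjusted p = 1.94e-05). *Kif5a*, also neuronal, had 21, 35 and 28 reads in GFP and 52, 46 and 50 reads in CRE (log2 fold change 0.75, SE 0.22, adjusted p = 0.0164). Its call was lost without GFP replicate 1 or 3 or CRE replicate 1 (adjusted p = 0.0513 to 0.0619) and on log2(FPKM + 1) (adjusted p = 0.051). Of 14 neuron markers 2 passed the filter: *Nefm* was higher and *Map2* was not called. The summed level of the list was 13.6 to 14.3 CPM in GFP and 15.8 to 18.7 CPM in CRE, and *Th*, *Dbh* and *Snap25* were at 0 in all libraries. Their part in the values of *Kif5a* and *Kif5c* was not tested.

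The rise in kinesin-2, the motor that carries material up the primary cilium, was largest in one heavy chain. *Kif3b* had 63.5, 58.1 and 66.7 CPM in GFP and 98.2, 94.3 and 99.3 CPM in CRE (log2 fold change 0.63, SE 0.06, adjusted p = 1.16e-05). Its partner *Kif3a* had 34.5, 29.8 and 33.05 CPM in GFP and 41.7, 43.5 and 43.3 CPM in CRE (log2 fold change 0.40, SE 0.06, adjusted p = 5.30e-04). Groups were apart for both. The accessory subunit *Kifap3* was 113% of GFP (adjusted p = 0.00947) and the alternative partner *Kif3c* 113% (adjusted p = 0.0245), with 41.4% of the windows of *Kif3c* shared with overlapping genes. The call for *Kif3c* was lost in DESeq2 (adjusted p = 0.0583) and without GFP replicate 2 or 3 or CRE replicate 1 or 3 (adjusted p = 0.0528 to 0.0897). On the FPKM scale *Kif3a* stood at 11.97 ± 0.698 FPKM in GFP and 18.5 ± 1.80 FPKM in CRE (SD, n = 3 each) and *Kif3b* at 10.5 ± 0.738 FPKM in GFP and 18.2 ± 0.446 FPKM in CRE (SD, n = 3 each). *Kif3c* had 8.10 ± 0.462 FPKM in GFP and 10.2 ± 0.135 FPKM in CRE (SD, n = 3 each) and went from 26.4 ± 0.364% to 21.7 ± 0.886% of the heavy chain total.

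The kinesin-3 family, carriers of vesicles and mitochondria, split. *Kif1b* had 200.1, 198 and 199.5 CPM in GFP and 256, 254 and 243 CPM in CRE (log2 fold change 0.33, SE 0.04, adjusted p = 9.81e-05). *Kif1c*, a kinesin of focal adhesion and integrin transport in migrating cells, had 232, 218 and 218 CPM in GFP and 188, 181 and 181 CPM in CRE and was lower (log2 fold change -0.28, SE 0.04, adjusted p = 4.58e-04). Both differences had groups apart, in opposite directions. The lower call for *Kif1c* held with library sizes not scaled (log2 fold change -0.12, adjusted p = 0.0377) and was lost on log2(FPKM + 1) (-0.12, adjusted p = 0.0506). *Kif1a* (log2 fold change -0.20, adjusted p = 0.0688), *Kif13a* (-0.06), *Kif13b* (0.09) and *Kif16b* (0.03) were not called, and *Kif13a* was above 0 with library sizes not scaled (0.10). *Kif13b* and *Kif16b* were called higher with library sizes not scaled (adjusted p = 0.00164 and 0.0275), and *Kif13b* on log2(FPKM + 1) (0.0101). *Kif1a* was called lower in DESeq2 (adjusted p = 0.0418), with the replicate number as a block (0.0307) and without GFP replicate 3 (0.0195). Among kinesin-1 light chains, which hold cargo, *Klc2* rose (24.7, 24.6 and 23.2 CPM in GFP and 30.1, 29.2 and 31.7 CPM in CRE; log2 fold change 0.33, SE 0.06, adjusted p = 0.00149), and *Klc1* (0.09; called higher without GFP replicate 1, adjusted p = 0.0211), *Klc3* (-0.25) and *Klc4* (0.17) were not called. *Klc1* and *Klc4* were called higher with library sizes not scaled (adjusted p = 0.00191 and 0.0113) and on log2(FPKM + 1) (0.00417 and 0.0194). The minus-end motor *Kifc3* rose with 35.6, 32.1 and 32.9 CPM in GFP and 42.5, 47.4 and 43.7 CPM in CRE (log2 fold change 0.41, SE 0.06, adjusted p = 4.72e-04). The scarce *Kifc2* did too, with 11, 9 and 14 reads in GFP and 31, 34 and 39 reads in CRE (log2 fold change 1.54, SE 0.27, adjusted p = 9.77e-04). The count filter favoured a higher call for *Kifc2*, which passed it only with its CRE libraries, so that call is not read as a result by itself. The class summed to 1529.5 ± 42.1 CPM in GFP and 1751 ± 15.6 CPM in CRE (SD, n = 3 each), 114.5% of GFP.

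**Figure D4:**
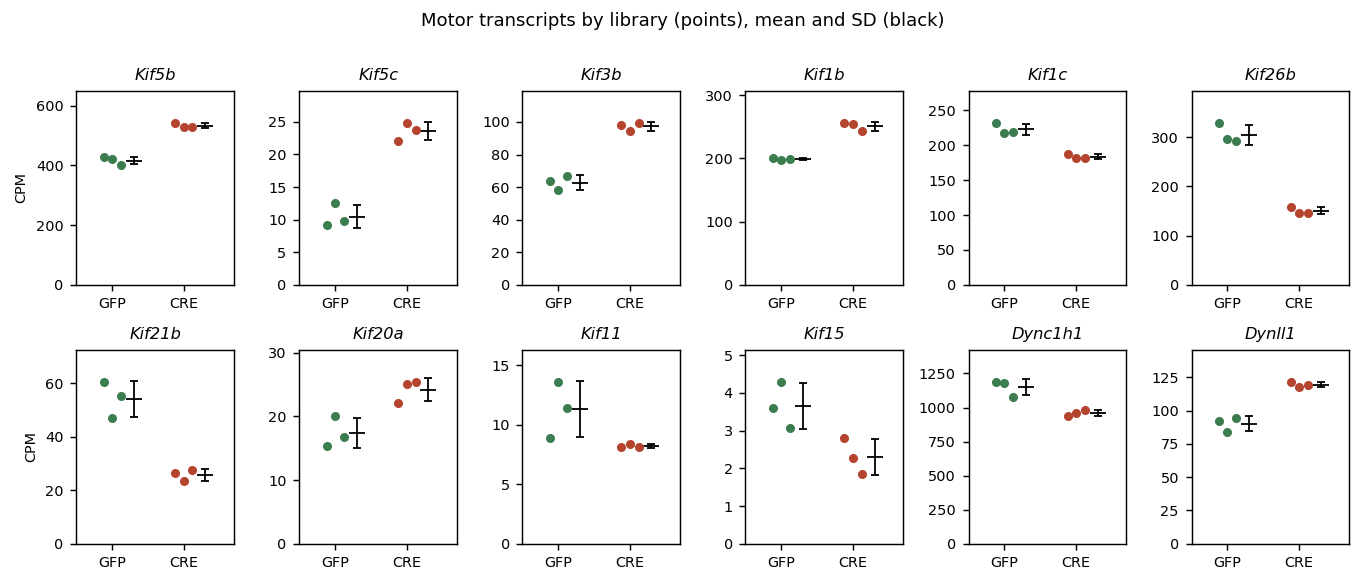
CPM (y axis, from 0, one scale per panel) of 12 kinesin and dynein genes in the 3 GFP (green) and 3 CRE (red) libraries, with mean and SD in black. Kif26b falls from 291 to 328 CPM in GFP to 146 to 158 CPM in CRE, Kif5c and Kif3b lie higher in CRE, and the low-level spindle motors Kif11 and Kif15 have GFP libraries spread about as widely as the distance between group means.

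Mitotic kinesins showed no common direction. Of 13 tested, 1 was higher (2 without GFP replicate 2) and 3 were lower, and the median log2 fold change was -0.04. The class summed to 82.6 ± 12.1 CPM in GFP and 85.1 ± 5.99 CPM in CRE (SD, n = 3 each), and the 3 GFP libraries alone ranged from 70.3 to 94.5 CPM. *Kif11*, the motor that pushes spindle poles apart, had 8.89, 13.6 and 11.4 CPM in GFP and 8.17, 8.42 and 8.13 CPM in CRE (log2 fold change -0.46, SE 0.14, adjusted p = 0.0219). *Kif15*, which backs it up, had 3.61, 4.28 and 3.07 CPM in GFP and 2.79, 2.27 and 1.85 CPM in CRE (log2 fold change -0.66, SE 0.22, adjusted p = 0.0263). *Kif22*, which pushes chromosome arms from the pole, had 5.10, 7.33 and 6.29 CPM in GFP and 4.35, 5.04 and 4.54 CPM in CRE (log2 fold change -0.43, SE 0.16, adjusted p = 0.0425). In all 3 the groups were apart by a gap smaller than the range of the GFP libraries. None of these 3 calls remained when GFP replicate 2, the library highest for all 3 genes, was left out, nor without CRE replicate 2 or CRE replicate 3, and that of *Kif15* alone remained without GFP replicate 3 or CRE replicate 1. That of *Kif22* was also lost with upper-quartile scaling (adjusted p = 0.0508) and in DESeq2 (0.0785). None remained on log2(FPKM + 1) or with library sizes not scaled, where 4 mitotic kinesins (*Kif20a*, *Kif23*, *Kifc1* and *Kifc5b*) were called higher and the class median was 0.12. *Kif20a*, needed for cytokinesis, had 15.3, 20.01 and 16.8 CPM in GFP and 22.1, 25.03 and 25.4 CPM in CRE and was higher (log2 fold change 0.47, SE 0.10, adjusted p = 0.00321), with 23.8% of its windows in the overlapping *Cdc23*. *Kifc5b* (log2 fold change 0.62, adjusted p = 0.0773), *Kif18b* (0.35) and *Kifc1* (0.27), and *Kif14* (-0.54, adjusted p = 0.175) at the low end, did not pass. Without GFP replicate 2 *Kif18b* was called higher (adjusted p = 0.0481), and without CRE replicate 2 *Kif14* was called lower (adjusted p = 0.0102). *Kif23* (log2 fold change 0.24), *Kif2c* (0.15), *Kif4* (-0.04), *Kif20b* (-0.10) and *Kif18a* (-0.36) were also not called, and *Kif4* and *Kif20b* were above 0 with library sizes not scaled (0.121 and 0.062). Among 28 other genes of the mitotic cell cycle 2 were higher (*Tpx2* and *Pcna*, the latter a call lost in DESeq2, in limma-voom, with genes of low counts kept, and without GFP replicate 2 or 3 or CRE replicate 1 or 2, adjusted p = 0.05 to 0.17) and 4 lower, led by the replication genes *Mcm2* and *Mcm3* and by *Ccna2* (log2 fold change -0.77, -0.53 and -0.54), the last not called on log2(FPKM + 1) (-0.29, adjusted p = 0.0545). The median of that list was -0.05, and its shares of 7.14% higher and 14.3% lower lie below those of all tested genes (25.5% and 25.7%). *Mki67* and *Top2a*, which mark cycling cells, had log2 fold changes of -0.30 and -0.23 and were not called (adjusted p = 0.0808 and adjusted p = 0.127), but both were called lower with the replicate number as a block (0.00519 and 0.0177) and without GFP replicate 1 (0.0133 and 0.00972). *Mki67* was also called lower in DESeq2 (0.0345) and *Top2a* without CRE replicate 2 (0.0365).

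What most mitotic kinesins did share is a letter pattern in their promoter windows. TTTGAA or TTTAAA, the core of the cell cycle homology region through which the MuvB complexes act, was searched on both strands (TTTGAA reads TTCAAA on the other strand) in the RefSeq windows of 300 bases. It was present for 11 of the 13 mitotic kinesins with a window (84.6%), all but *Kif18a* and *Kif2b*; *Kif2b* was not tested for expression, and *Kif20a*, the one called higher, had no window. It was present for none of the 15 transport kinesins with a window, which lack *Kif5a*, *Kif5b*, *Kif13b*, *Kifc2*, *Kifc3* and *Klc2* and hold the untested *Kif17*, and for 19.2% of the promoters of tested genes (27.8% of all). CCAAT was present in 69.2% of the mitotic kinesin promoters. The windows of *Kif2c*, *Kif14* and *Kif4* lie wholly inside the gene as annotated in GENCODE M21, downstream of its start. Stretches of 30 bases with the pattern in capitals are given for the 3 genes called lower and for 3 that were not called (GRCm38.p6, in the direction of the gene).
Kif11, chr19:37376351-37376380, plus strand: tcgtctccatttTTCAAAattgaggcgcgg
Kif15, chr9:122951050-122951079, plus strand: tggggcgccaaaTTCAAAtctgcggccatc
Kif22, chr7:127042420-127042449, minus strand: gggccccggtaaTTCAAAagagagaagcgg
Kif23, chr9:61946780-61946809, minus strand: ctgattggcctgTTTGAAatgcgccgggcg
Kif18b, chr11:102925104-102925133, minus strand: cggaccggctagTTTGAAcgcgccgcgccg
Kif4, chrX:100626072-100626101, plus strand: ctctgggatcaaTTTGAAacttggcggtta
*Kif15* and *Kif22* hold 2 copies in their windows, and the one nearer the start is printed.

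The kinesins that fell most belong neither to transport nor to the spindle. Of 9 tested in this remaining class 5 were lower and 1 was higher, with a median log2 fold change of -0.20. *Kif26b*, a kinesin with little motor activity that acts in noncanonical Wnt signalling and kidney development, had 328, 295 and 291 CPM in GFP and 158, 146 and 147 CPM in CRE. The level in CRE was 49.2% of that in GFP, with groups far apart (log2 fold change -1.02, SE 0.06, adjusted p = 6.70e-07). Its relative *Kif26a* was far less abundant, with 79, 63 and 63 reads in GFP and 39, 40 and 33 reads in CRE, and lower by a similar amount (log2 fold change -0.95, SE 0.22, adjusted p = 0.00445). *Kif21b*, a motor that also pauses growth of the microtubule end, had 60.4, 46.96 and 55.1 CPM in GFP and 26.3, 23.3 and 27.7 CPM in CRE, 47.6% of GFP (log2 fold change -1.07, SE 0.10, adjusted p = 1.17e-05). All 3 were also called lower with library sizes not scaled and on log2(FPKM + 1). *Kif21a* (86.6% of GFP, adjusted p = 0.0126) and *Kif2a*, which takes microtubule ends apart (86.9% of GFP, adjusted p = 0.00649), were lower by much less, and both changed sign on log2(FPKM + 1) (0.022 and 0.035), where the class median was 0.04. Neither was called with library sizes not scaled (adjusted p = 0.522 and 0.504), and the call for *Kif21a* was also lost in DESeq2 (0.0534) and without CRE replicate 2 (0.0561). *Kif7*, which sits at the cilium tip and regulates Hedgehog signalling, had 8.33, 8.62 and 8.001 CPM in GFP and 10.96, 10.6 and 11.8 CPM in CRE and was higher (log2 fold change 0.42, SE 0.10, adjusted p = 0.00475). *Kif9* (log2 fold change 0.30), *Kif24* (-0.04) and *Kif27* (0.68, on 6 to 18 reads a library) were not called.

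Dynein subunits did not follow the tubulins. Of 18 tested 4 were higher (22.2%) and 3 lower (16.7%; 5 without CRE replicate 3), shares near or below those of all tested genes, and the median log2 fold change was -0.07. Their summed level was 2176 ± 35.3 CPM in GFP and 2059 ± 41.8 CPM in CRE (SD, n = 3 each), 94.6% of GFP, and 105.9% with library sizes not scaled, so the direction of the sum depends on the scaling. *Dync1h1*, the heavy chain that holds the motor of cytoplasmic dynein, had 1187, 1177 and 1081 CPM in GFP and 942, 959 and 984 CPM in CRE. It was lower in 3 of 3 CRE libraries (log2 fold change -0.26, SE 0.05, adjusted p = 0.00114) and was not called with library sizes not scaled (log2 fold change -0.09, adjusted p = 0.109) or on log2(FPKM + 1) (-0.09, adjusted p = 0.14). The light intermediate chain *Dync1li1*, which links dynein to its adaptors, moved the other way with 102, 103 and 101 CPM in GFP and 127, 127 and 118 CPM in CRE (log2 fold change 0.28, SE 0.05, adjusted p = 5.23e-04). So did the light chain *Dynll1* with 92.4, 83.8 and 94.5 CPM in GFP and 121, 118 and 119 CPM in CRE (log2 fold change 0.40, SE 0.05, adjusted p = 1.26e-04). Its relative *Dynll2* had 103, 106 and 115 CPM in GFP and 124, 127 and 138 CPM in CRE (log2 fold change 0.26, SE 0.06, adjusted p = 0.00367). Both light chains also bind many proteins outside dynein. The intermediate chain *Dync1i2* was 110.1% of GFP (adjusted p = 0.0351), a call lost in DESeq2 (adjusted p = 0.0526), with genes of low counts kept (0.0505) and on leaving out any 1 library but GFP replicate 3 (0.0572 to 0.106). *Dync1li2* (108%, adjusted p = 0.0514) and *Dynlt3* (91.1%, adjusted p = 0.0533) had values just outside the threshold. *Dync1li2* was called higher with library sizes not scaled (0.000381), on log2(FPKM + 1) (0.00626), with upper-quartile scaling (0.0265), with the stricter count filter (0.0426), in limma-voom (0.0438) and without CRE replicate 2 (0.0321). *Dynlrb1* had 67.6, 67.1 and 71.7 CPM in GFP and 61.1, 60.9 and 71.1 CPM in CRE and was not called; it and *Dynlt3* changed sign with library sizes not scaled (0.066 and 0.028). Without CRE replicate 3 both were called lower (adjusted p = 0.0357 and 0.0291), as was *Dynlt3* without GFP replicate 2 (0.0372), with RLE scaling (0.0495), in limma-voom (0.0458) and with the replicate number as a block (0.0226).

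The ciliary dynein-2 showed its change in the heavy chain. *Dync2h1* had 26.1, 26.3 and 23.5 CPM in GFP and 17.6, 16.2 and 19.6 CPM in CRE (log2 fold change -0.51, SE 0.09, adjusted p = 7.56e-04), the lowest log2 fold change among dynein genes called, and was not called on log2(FPKM + 1) (-0.27, adjusted p = 0.052). Its partners *Dync2li1* (log2 fold change 0.12), *Dync2i1* (0.14), *Dync2i2* (-0.18) and *Dynlt2b* (-0.29) were not called, though *Dync2i1* was higher with library sizes not scaled (adjusted p = 0.0279). *Dync1i1*, an intermediate chain mostly of neurons, had 6, 11 and 29 reads in GFP and 14, 9 and 12 reads in CRE, too few and too variable for a call (adjusted p = 0.479). The 4 copies *Dynlt1a*, *Dynlt1b*, *Dynlt1c* and *Dynlt1f* share 41.2 to 80.7% of their windows, mostly with each other. *Dynlt1b* alone was called lower (log2 fold change -0.19, SE 0.05, adjusted p = 0.0128), though not with library sizes not scaled (adjusted p = 0.63) or on log2(FPKM + 1) (0.588). *Dynlt1a* and *Dynlt1f* were above 0 in both of these. The 4 summed to 68.6 ± 3.28 CPM in GFP and 62.2 ± 1.598 CPM in CRE (SD, n = 3 each), 90.7% on TMM-scaled counts. With library sizes not scaled the log2 fold change was -0.033 for *Dynlt1b*, 0.080 for *Dynlt1a*, 0.111 for *Dynlt1f* and 0.48 for *Dynlt1c*. The sum was not taken on that scale.

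Set side by side, the summed level in CRE relative to GFP was 142.0% for alpha and beta tubulins, 117.0% for the gamma tubulin class and 114.5% for transport kinesins. It was 103.1% for mitotic kinesins, 94.6% for dynein subunits and 59.5% for the other kinesins, of which *Kif26b* makes up most. With library sizes not scaled the order was the same, at 158.9%, 131%, 128.1%, 115.3%, 105.9% and 66.6%. Across the 81 genes the log2 fold change ran against gene size, with a Spearman's rho of -0.37 against exonic bases, against 0.05 over 12845 tested genes. Without alpha and beta tubulins, which are short, rho was -0.26 over 69 genes, and within kinesins -0.46 over 42. Against genomic span, introns included, rho was -0.38 over the 81 genes and 0.01 over all tested genes. It was -0.27 without alpha and beta tubulins and -0.26 within kinesins. These are correlations across genes that share libraries and are given as a description.

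Genes that work with these motors were counted by lists. Of 29 tested genes of dynactin and dynein adaptors 14 were higher (48.3%) and 2 lower (6.9%), with a median log2 fold change of 0.14. Over all tested genes 25.5% were higher and 25.7% lower. Among the higher genes was the adaptor *Hook2* (log2 fold change 0.62, SE 0.11, adjusted p = 8.96e-04). The adaptor *Bicd1* had 9.20, 5.58 and 7.01 CPM in GFP and 13.2, 12.7 and 14.6 CPM in CRE (log2 fold change 0.90, SE 0.16, adjusted p = 8.22e-04). *Hap1*, which joins kinesin and dynactin to vesicles, ranged from 4.70 to 9.53 CPM in CRE and from 2.61 to 4.68 CPM in GFP (log2 fold change 1.03, SE 0.29, adjusted p = 0.0125; not called without GFP replicate 3 or CRE replicate 2, 0.0552 and 0.0511, nor on log2(FPKM + 1), 0.54 and 0.0908). *Ninl* and *Mapk8ip1* were the 2 lower genes, both at log2 fold change -0.25, and neither was called in DESeq2 (adjusted p = 0.0829 and 0.114) or with library sizes not scaled (0.442 and 0.426), nor on log2(FPKM + 1), with upper-quartile scaling or without 1 of several libraries (0.0512 to 0.452). For tubulin folding and modification 5 of 26 tested genes were higher and 7 lower, shares of 19.2% and 26.9%, close to those of all tested genes. The folding cofactor *Tbcc* rose (log2 fold change 0.61, SE 0.11, adjusted p = 0.00124), as did *Tpgs2* (0.47) and *Ttll4* (0.36), which serve glutamylation of tubulin. *Vash1*, the enzyme that cuts the last tyrosine from alpha tubulin, had 5.66, 4.68 and 5.72 CPM in GFP and 2.36, 2.38 and 2.69 CPM in CRE and fell (log2 fold change -1.11, SE 0.16, adjusted p = 2.70e-04), together with *Agbl5* (-0.86) and *Agbl2* (-0.84), of a family that trims glutamate from tubulin tails. *Ttc5*, the factor that recognises tubulins by their first residues as they are made, had 19.4, 19.9 and 21.3 CPM in GFP and 21.3, 23.2 and 23.02 CPM in CRE and was not called (adjusted p = 0.102), but was higher with library sizes not scaled (0.0041) and on log2(FPKM + 1) (0.00568).

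Of 38 tested microtubule-associated proteins 7 were higher and 9 lower, shares of 18.4% and 23.7% (median log2 fold change 0.02). *Clip4*, a plus-end protein (log2 fold change 1.152, SE 0.16, adjusted p = 0.000222), *Gtse1* (log2 fold change 1.03, SE 0.07, adjusted p = 1.48e-06) and the minus-end protein *Camsap1* (0.36) led the higher genes. *Mid1*, a ubiquitin ligase on microtubules, had 58.1, 60.8 and 58.04 CPM in GFP and 24.6, 23.3 and 23.97 CPM in CRE and had the lowest log2 fold change of the list (log2 fold change -1.30, SE 0.05, adjusted p = 1.88e-07), followed by *Dclk1* (-1.005) and *Mtus1* (-0.77). For intraflagellar transport and the primary cilium, where kinesin-2 and dynein-2 work, 8 of 30 tested genes were higher and 4 lower (median 0.08), shares of 26.7% and 13.3%, the former near that of all tested genes (25.5%) and the latter below it (25.7%). *Ift46* had 37.7, 35.96 and 36.1 CPM in GFP and 70.1, 67.2 and 65.8 CPM in CRE (log2 fold change 0.89, SE 0.05, adjusted p = 7.05e-07), and the cilium membrane genes *Bbs4* (0.75) and *Bbs9* (0.57) were also higher, whereas *Ift43* (-0.35), *Ift172* (-0.34) and *Ift52* (-0.28) were lower. On log2(FPKM + 1) none of these 3 lower calls remained (adjusted p = 0.272, 0.534 and 0.75). *Ift43* and *Ift52* were also not called with library sizes not scaled (0.23 and 0.179). The call for *Ift43* was lost on leaving out any 1 library but GFP replicate 2 (0.0872 to 0.16), with upper-quartile scaling (0.0508) and in limma-voom (0.0543).

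Markers of other cell types were counted in the same way, against 25.5% higher and 25.7% lower over all tested genes. Of 11 endothelial markers 9 were lower and 1 higher (summed 1102 to 1161 CPM in GFP and 982 to 1032 CPM in CRE). Of 6 tested macrophage markers 3 were lower (58.6 to 66.6 against 34.8 to 38.1 CPM). Of 10 markers of smooth muscle and pericytes 6 fell and 1 rose (1042 to 1184 against 873 to 890 CPM). Of 5 tested glial markers 1 was lower, a share near that of all tested genes. The only cardiomyocyte marker tested of 13, *Nppb*, was higher (log2 fold change 3.23), on a summed 0.958 to 1.35 against 1.90 to 3.28 CPM. At this level and fold it can have passed the count filter only with its CRE libraries, so its call is not read as a result. Their part in the tubulin and motor values was not tested.

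The remaining 17 genes were too low to test. No read was counted in any library for *Tubb1*, *Tubal3*, *Tuba3a*, *Kif12*, *Kif2b*, *Kif19b*, *Dynlt2a1* and *Dynlt5*, and 0 reads leave room for a level of up to 0.156 to 0.187 CPM, depending on the library and for counting error only. That limit does not hold for *Dynlt2a1* and *Dynlt5*, with 98.3% and 80.4% of their windows shared with other genes. *Dynlt2a2* had 5, 6 and 5 reads in GFP and 15, 28 and 8 reads in CRE. *Kif6* had 2, 2 and 3 reads in GFP and 13, 7 and 5 reads in CRE, and *Kif17*, a kinesin-2 mostly of neurons, had 0, 3 and 3 reads in GFP and 4, 7 and 1 reads in CRE. *Kif19a* had 1 to 7 reads a library. *Tuba3b*, *Kif28*, *Dynlrb2*, *Dynlt2a3* and *Dynlt4* had at most 3 reads in a library.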

How the data were processed

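RNA-seq was analysed from 6 libraries of mouse cardiac fibroblasts, 3 GFP and 3 CRE, grouped by sample title. Per the study's methods, reads were trimmed with Trimmomatic, aligned to GRCm38 with HISAT2 and counted with HTSeq-count, and FPKM came from Cufflinks. Versions and the strand setting of counting are not given in the sources used here, which leaves genes that overlap another uncertain. Kits for extraction and library preparation differ between labels and methods and remain unsettled. Raw counts were deposited with no normalization and were the input to every test. The authors also deposited FPKM per library, used here only to compare levels between genes and as an alternative. The deposited table further holds group mean FPKM, the authors' log2 fold change, p-value and false discovery rate, which were not used. No per-sample column was left out.

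Genes were filtered with filterByExpr (minimum count 10, minimum total 15), which left 12862 of 22063, scaled by TMM and tested with edgeR 4.0.16 (R 4.3.3) by glmQLFit and glmQLFTest, two-sided, with group as the only term. SE was taken as |log2 fold change| over the root of the F statistic. In 10 simulations of this comparison on 12862 genes, with 200 genes changed by folds of 1.5 or 0.66, the fit called 72.3% of them, 100% of those in the right direction, and 8.6% of calls were genes not changed. Library totals are 17002126 to 20343590 reads, and intervals and limits for a count of 0 (3 counts) cover counting error only.

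The genes, classes and lists were chosen with earlier results of these data known. Genes named are, in each class, the 4 highest and 4 lowest log2 fold changes, the 3 highest mean FPKM and every gene not tested, and in each list up to 3 called genes per direction; other genes of the classes were named after their values were seen, as were *Ttc5*, *Mki67* and *Top2a*. Shared windows are 150-base windows (step 10) of each gene's principal transcript found in another gene of GENCODE M21 (GRCm38), in which all 98 genes are protein-coding. Promoters are from RefSeq (GRCm38.p6), with 70 of the genes matched, and the first listed promoter was taken. Alternatives were other scalings (RLE, upper quartile, library size alone), other filters, DESeq2 1.42.0, limma 3.58.1 (voom, and log2(FPKM + 1)), a replicate block, the study's fold rule with unadjusted p, and leaving out each library.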

Additional observations from a re-analysis of the deposited data

How the results depend on the processing

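Over the 81 tested genes, *Tet3* and the genes of other lists named above (116 in all), 1560 values under an alternative kept their direction and side of the threshold, 91 kept direction and lost the call, 44 gained one and 39 changed sign. Library size alone moved the median of all genes by 0.162 and log2(FPKM + 1) by 0.13, and the counts of higher and lower genes over all tested genes went from 3277 and 3306 to 5529 and 2083 and to 4976 and 1916. With library size alone 5 of the 98 genes were lower instead of 12, dynein subunits had 1 lower instead of 3, mitotic kinesins 4 higher instead of 1 and 0 lower instead of 3, and other kinesins 3 lower instead of 5. On log2(FPKM + 1) these were 3, 0, 4, 0 and 3, with 0 transport kinesins lower instead of 1. With the study's rule (unadjusted p under 0.05 and a fold over 1.5 or under 0.66) 967 and 1323 of all genes were higher and lower, and 10 of the 98 genes were higher and 4 lower, with 5 alpha and beta tubulins, 0 gamma tubulin genes, 4 transport kinesins, 0 other kinesins and 0 dynein subunits higher, and 0 transport kinesins, 1 mitotic kinesin, 3 other kinesins and 0 dynein subunits lower. The filter alternatives, RLE and upper-quartile scaling and limma-voom moved none of these counts by over 1.5 times, and DESeq2 moved that of lower transport kinesins to 2.

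Leaving out 1 library gave 28 to 31 higher and 9 to 12 lower genes in all, 10 alpha and beta tubulins higher each time, 9 to 11 transport kinesins higher and 1 to 2 lower (2 without GFP replicate 3), 1 to 2 mitotic kinesins higher (2 without GFP replicate 2) and 0 to 3 lower, and 3 to 5 dynein subunits lower (5 without CRE replicate 3). The mitotic kinesins had 0 lower without GFP replicate 2 or CRE replicate 3 and 1 without GFP replicate 3, CRE replicate 1 or CRE replicate 2.

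Signs changed for genes that were not called, and for *Kif2a* and *Kif21a*. With library size alone the log2 fold changes were 0.066 for *Dynlrb1*, 0.080 for *Dynlt1a*, 0.111 for *Dynlt1f*, 0.028 for *Dynlt3*, 0.10 for *Kif13a*, 0.062 for *Kif20b*, 0.12 for *Kif24*, 0.121 for *Kif4*, 0.074 for *Map2*, 0.055 for *Tubb2b*, 0.093 for *Tubd1* and 0.12 for *Tubgcp3*. On log2(FPKM + 1) they were 0.062 for *Dynlrb1*, 0.202 for *Dynlt1a*, 0.106 for *Dynlt1f*, 0.027 for *Dynlt3*, 0.16 for *Kif13a*, 0.028 for *Kif20b*, 0.022 for *Kif21a*, 0.13 for *Kif24*, 0.035 for *Kif2a*, 0.090 for *Kif4*, 0.301 for *Map2*, 0.054 for *Tubb2b*, 0.069 for *Tubd1* and 0.087 for *Tubgcp3*. Leaving out 1 library gave -0.77 to 0.32 for *Dync1i1* (above 0 without GFP replicate 3), -0.193 to 0.015 for *Dynlt1a* (above 0 without CRE replicate 3), -0.132 to 0.022 for *Dynlt1f* (above 0 without GFP replicate 3), -0.239 to 0.096 for *Kif4* (above 0 without GFP replicate 2 or 3 or CRE replicate 1 or 3), -0.13 to 0.087 for *Kif24* (above 0 without GFP replicate 2 or CRE replicate 2), -0.35 to 0.036 for *Tube1* (above 0 without GFP replicate 3 or CRE replicate 2) and -0.0201 to 0.054 for *Tubgcp5* (below 0 without GFP replicate 2 or CRE replicate 3). The cause was not tested.

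GFP and CRE libraries share replicate numbers, but same-numbered libraries deviated from their group means with correlations of 0.046, 0.18 and -0.0181, and only the replicate 2 libraries correlated best with their own number, so the numbers were not taken to pair them. With the replicate number as a block 3260 genes were higher and 3373 lower, and 2 transport kinesins were lower instead of 1. Calls that hung on 1 library were seen both for genes with few reads, such as *Kif15*, and for genes with many, such as *Dync1i2*. The part of depth in this was not tested.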
